A study of Homo sapiens with 8 samples.

Results

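The comparison was between libraries of PC3 cells infected with CRISPR/Cas9 lentivirus carrying a guide RNA against EphA2 (PC3 EphA2 KO, n = 2) and libraries of PC3 cells infected with lentivirus carrying a guide with no target (PC3 control, n = 2), both collected after 72 h. PC3 is an androgen-independent human prostate cancer line established from a metastasis in bone. These 4 libraries were taken from a series of 8; the other 4 carry the label DU145, another prostate cancer line, and came from cells given an EphA2 expression plasmid (DU145 EphA2 OE, n = 2) or a control plasmid (DU145 control, n = 2) for 48 h. The genes described are the 22727 of 33221 genes in the table that passed a filter on low counts. The labels say that editing was checked by sequencing of the locus; they name no selection or cloning step, and the guide sequence, the share of edited alleles and the protein level were not analysed here.

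EphA2 is a receptor tyrosine kinase that binds ephrin-A ligands on neighbouring cells. Ligand-bound EphA2 is known to dampen ERK and AKT signalling, while EphA2 without ligand can be phosphorylated by AKT and promotes migration of cancer cells. It is abundant in many prostate cancer lines, and the series title links it to CDH1 (E-cadherin, the adherens junction protein of epithelial cells).

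The 4 libraries held 60021491 and 60951530 counts (PC3 EphA2 KO) and 59447980 and 58539277 counts (PC3 control). The cells had epithelial RNA: KRT8, a keratin, was at 92.1 and 89.0 FPKM in the knockout and 84.6 and 84.0 FPKM in the control, while PTPRC, the leukocyte CD45, was at 0 in all 4 and TMPRSS2, a luminal prostate protease, was at 0 in 3 of them and at 0.0114 FPKM in PC3 control replicate 2. FPKM is the number of fragments scaled to transcript length and sequencing depth. The labels have a limit that precedes every result. PC3 is known to lack CTNNA1 (alpha-catenin) through a homozygous deletion, yet CTNNA1 stood at 45.8 and 44.2 FPKM in the knockout against 41.0 and 36.5 FPKM in the control. The PC3 control and DU145 control libraries differed in 13 genes, more than the 6 genes that separated knockout from control. The names PC3 and DU145 are used below as labels. The table's names for the control columns were assigned to the lines by convention, so an exchange of the controls was run as an alternative. Its values are given for the called genes and for a part of the other named genes, but not for most gene lists.

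EPHA2 RNA was lower in the knockout but far from absent. EPHA2 (chromosome 1, 16124337 to 16156069, minus strand, GRCh38) was at 41.7 and 37.7 FPKM in PC3 EphA2 KO and 55.1 and 55.6 FPKM in PC3 control. The groups did not overlap, and both knockout libraries also lay below all 4 DU145-labelled libraries, where the lowest was 58.8 FPKM. The log2 fold change was -0.46 (SE 0.09), with an unadjusted p of 0.00146 and an adjusted p of 0.415 in edgeR's quasi-likelihood test with Benjamini-Hochberg adjustment over all genes, so it did not pass the threshold of 0.05. In bulk RNA, fewer cells with the transcript and less transcript per cell cannot be told apart. EPHA2-AS1, a gene on the opposite strand that overlaps the EPHA2 5' end, held 116 and 99 counts in the knockout and 47 and 32 in the control (log2 fold change 1.43, SE 0.45, adjusted p = 0.674). Summed with EPHA2, the locus held 12358 and 11386 counts in the knockout against 16068 and 15932 in the control. Within 500000 bases of EPHA2, 20 genes had a mean of at least 1 FPKM, and 2 of them were at an unadjusted p below 0.05, EPHA2-AS1 and ENSG00000288398 (log2 fold change -0.71).

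CDH1 lay the other way. It was at 29.1 and 27.7 FPKM in the knockout and 20.8 and 21.4 FPKM in the control, a log2 fold change of 0.45 (SE 0.09, unadjusted p = 0.00143, adjusted p = 0.415 in edgeR). Both knockout libraries lay above the other 6 of the series. DESeq2 called EPHA2 (adjusted p = 0.015) and CDH1 (adjusted p = 0.0128).

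Between knockout and control, 6 of 22727 genes passed an adjusted p of 0.05 in edgeR (0.0264% of those tested), 2 higher (0.0088%) and 4 lower (0.0176%). At an unadjusted p below 0.05 there were 1504 genes (6.62%), with 707 higher (3.11%) and 797 lower (3.51%). DESeq2 called 190 of the 21845 genes to which it gave an adjusted p (0.87%). Of all genes tested, 49.3% had a log2 fold change above 0 and 50.3% below 0. The FPKM of the groups did not overlap in 43.1% of genes, lower in the knockout in 23.6% and higher in 19.5%. These shares are the background for every count below.

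Effect sizes were small where the measurement was precise. Over all genes tested the log2 fold changes had an SD of 1.23, and 14.0% were beyond 1 in either direction, most of them in genes of low level: the share was 47.3% below 0.1 FPKM, 22.2% from 0.1 to 1 FPKM, 2.72% from 1 to 10 FPKM, 0.618% from 10 to 50 FPKM and 0.304% above 50 FPKM. Of the 4056 genes with a mean of at least 10 FPKM, 23 differed by more than 1 between the groups. Between the replicates of a single group, 56 of the same genes differed by more than 1 in the knockout and 61 in the control. Over all 4056 the median difference was 0.111 between group means, 0.0726 between the knockout replicates and 0.0808 between the control replicates, so the typical difference was smaller between replicates, while more genes passed a difference of 1 between replicates than between groups. Below 1 FPKM the median difference between replicates exceeded that between group means, and above 10 FPKM it was smaller: for the 658 genes over 50 FPKM the group means differed by a median of 0.112, the knockout replicates by 0.0458 and the control replicates by 0.0617. Means of 2 libraries carry less counting noise than single libraries, which the comparison does not adjust for.

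**Figure D1:**
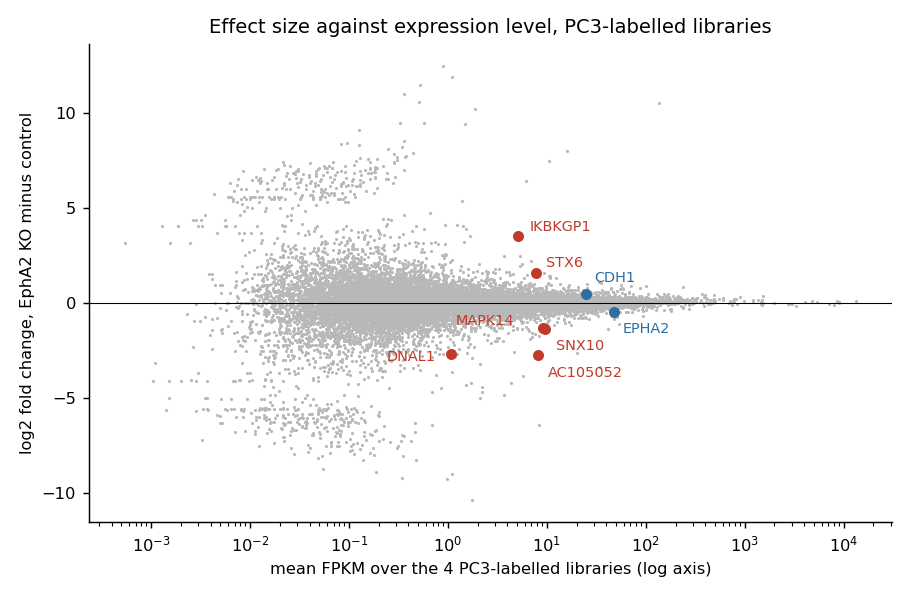
Each point is a gene tested, with its mean FPKM over the 4 PC3-labelled libraries on a log x axis and its log2 fold change (EphA2 KO minus control) on the y axis; red points are the 6 genes that passed an adjusted p of 0.05 and blue points are EPHA2 and CDH1. The spread narrows as the level rises, and the 6 genes have means between 1 and 10 FPKM.

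**Figure D2:**
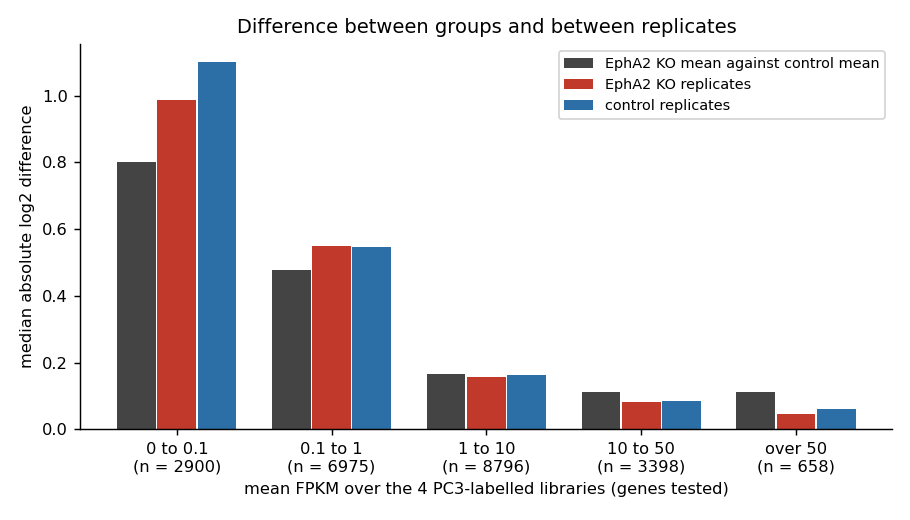
Bars give the median absolute log2 difference, for genes grouped by mean FPKM, between the knockout and control means, between the 2 knockout libraries and between the 2 control libraries. Below 1 FPKM the replicates differ more than the group means, and above 10 FPKM less.

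Among the 6 genes past the threshold were genes of membrane traffic. STX6, a SNARE that drives fusion of vesicles at the trans-Golgi network and endosomes, was at 11.8 and 11.3 FPKM in the knockout and 3.73 and 4.01 FPKM in the control. It rose 3.02-fold (log2 fold change 1.60, SE 0.10, adjusted p = 0.0132). The knockout level was close to that of the DU145-labelled libraries, which ran from 9.89 to 11.4 FPKM, so it was the PC3 control that stood apart from the other 6 libraries. SNX10, an endosomal sorting nexin known for its part in endosome and lysosome acidification, was at 5.56 and 5.12 FPKM in the knockout and 13.5 and 14.1 FPKM in the control. It fell by 1.35 on the log2 scale (SE 0.12, adjusted p = 0.0249). Here the knockout stood apart, since the 4 DU145-labelled libraries lay between 11.3 and 13.9 FPKM.

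MAPK14, the stress-activated kinase p38-alpha, fell by 1.32 on the log2 scale (SE 0.12, adjusted p = 0.0311). It was at 5.41 and 4.85 FPKM in the knockout and 13.6 and 12.4 FPKM in the control. The DU145-labelled libraries lay between 4.17 and 5.06 FPKM, beside the knockout, so the 2 PC3 control libraries were again the high ones. IKBKGP1, a pseudogene of IKBKG (the regulatory subunit NEMO of the IKK kinases of NF-kB), was at 9.16 and 9.88 FPKM in the knockout and 0.534 and 1.12 FPKM in the control. It rose by a log2 fold change of 3.52 (SE 0.34, adjusted p = 0.0365), and the DU145-labelled libraries, at 8.00 to 8.83 FPKM, lay beside the knockout. IKBKG itself held 1591 and 1709 counts in the knockout and 1817 and 1863 in the control (log2 fold change -0.18, unadjusted p = 0.176). How reads were divided between the 2 near-identical loci is not known, and their sum was 2288 and 2476 counts in the knockout against 1858 and 1947 in the control.

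DNAL1, a light chain of the outer dynein arm of cilia, fell by 2.66 on the log2 scale (SE 0.21, adjusted p = 0.0238). It was at 0.305 and 0.274 FPKM in the knockout and 1.96 and 1.79 FPKM in the control. The DU145 EphA2 OE libraries lay beside the PC3 control at 1.42 and 1.78 FPKM, and the DU145 control libraries beside the knockout at 0.276 and 0.365 FPKM. AC105052 (ENSG00000267645, chromosome 7, 102637049 to 102671641, minus strand) fell by 2.75 on the log2 scale (SE 0.22, adjusted p = 0.0238), with 181 and 292 counts in the knockout and 1664 and 1469 in the control. It overlaps 5 other genes of the table. UPK3BL1, a uroplakin-like gene that overlaps it on the same strand, held 557 and 1793 counts in the knockout and 8 and 19 in the control (log2 fold change 6.40, adjusted p = 0.254 in edgeR). DESeq2 called UPK3BL1. The 6 overlapping genes together held 1497 and 2698 counts in the knockout and 2539 and 2133 in the control, so the groups overlapped once the locus was summed.

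**Figure D3:**
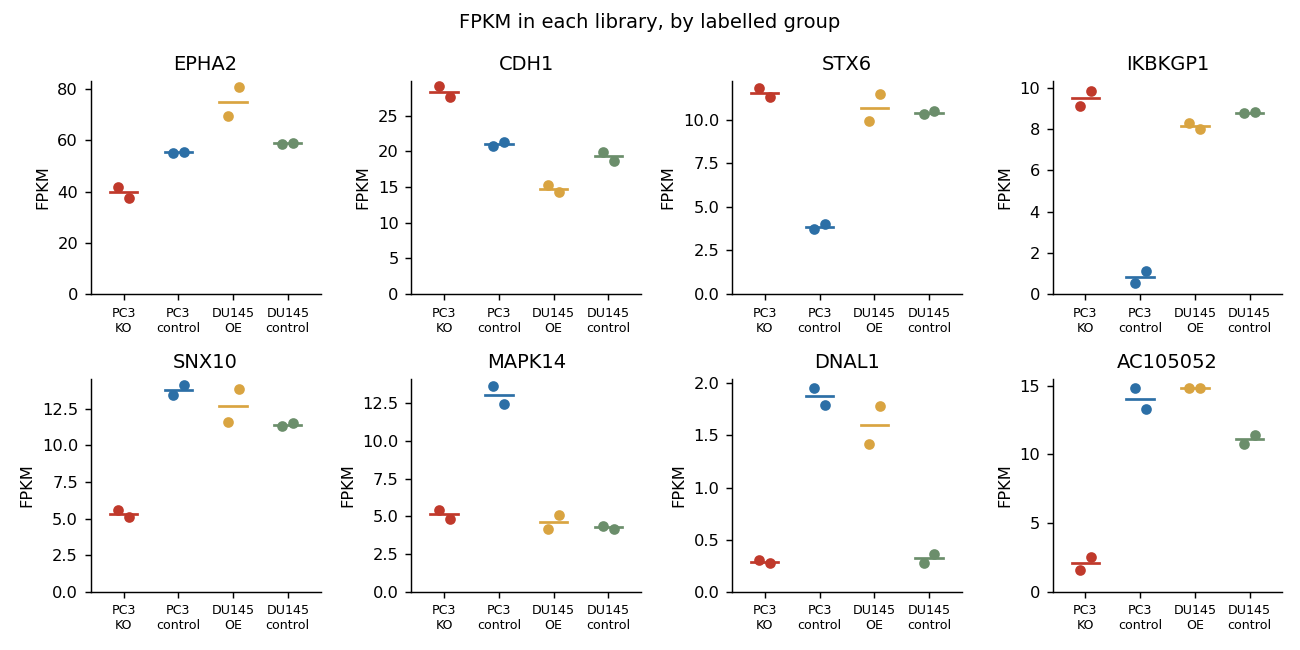
FPKM in each of the 8 libraries (points) and group means (lines) for EPHA2, CDH1 and the 6 genes past the threshold, with y axes from 0. For STX6, IKBKGP1 and MAPK14 the 2 PC3 control libraries stand apart from the other 6; for SNX10 and AC105052 the 2 PC3 EphA2 KO libraries do.

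Leaving out single libraries changed which of the 6 genes passed. STX6 and AC105052 passed whichever of the 4 PC3-labelled libraries was left out, while MAPK14 did not pass when any of the 4 was left out, SNX10 passed only without PC3 control replicate 1, and DNAL1 and IKBKGP1 passed when either control library was left out but not when a knockout library was. With 1 of the 4 libraries left out, the log2 fold changes ran from -1.40 to -1.25 for MAPK14, from -1.40 to -1.29 for SNX10, from -2.74 to -2.59 for DNAL1 and from 3.09 to 4.15 for IKBKGP1. With the controls of the lines exchanged, SNX10 and AC105052 remained among 13 called genes, and the log2 fold changes of the other 4 were 0.12 (STX6), 0.08 (IKBKGP1), 0.23 (MAPK14) and -0.19 (DNAL1), not called.

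Some of these genes also met a rule for genes that sat at 2 levels. Of 12811 genes tested with a mean of at least 1 FPKM over the 8 libraries, 151 fell at 2 tight levels, separated by at least 1 on the log2 scale with each level under 0.5 wide. This rule was chosen after the data were seen. In 141 of the 151 the 2 libraries of at least 1 group were on different levels, and in 78 a single library was alone on its level. BASP1, a membrane-bound cytoskeletal protein, was at 21.1 and 24.9 FPKM in the knockout and 23.1 and 98.0 FPKM in the control. WDR6, a tRNA methylation cofactor, was at 22.4 and 5.44 FPKM in the knockout and 6.71 and 6.76 FPKM in the control. The PI5P 4-kinase PIP4K2C was at 27.8 and 8.51 FPKM in the knockout and 8.68 and 9.39 FPKM in the control. In 10 of the 151 every group kept to a single level, and 7 of these put knockout and control on different levels, among them STX6, SNX10, MAPK14 and DNAL1. Called genes with a large fold change and close replicates are prone to meet this rule. Their place among the 7 therefore does not tie them to the genes whose replicates split.

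The difference between the knockout and the overexpression responses was tested as a contrast of both, and 7 genes passed (0.0308% of those tested). STX6, DNAL1 and AC105052 were among them.

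Taken as a set of 4, the DU145-labelled libraries lay about as often on the side of the knockout as on that of the control. In most of the genes compared they divided between the sides, and how EphA2 OE and control libraries divided there was not counted. Among 275 genes with a mean of at least 1 FPKM, an unadjusted p below 0.01 and no overlap of the groups, all 4 DU145-labelled libraries lay on the knockout side of the midpoint in 46 (16.7%), all on the control side in 45 (16.4%) and on both sides in 184. Over all 12852 genes tested with a mean of at least 1 FPKM these shares were 12.1% and 10.4%.

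Of those 275 genes, 122 lay higher and 153 lower in the knockout. Leaving out the called genes, 4 of the 8 named for the highest fold changes and 2 of the 8 named for the lowest were small RNA genes that lie inside other genes. MIR1244-1, a microRNA gene within PTMA, held 1675 and 1629 counts in the knockout and 1 and 1 in the control, while its host PTMA held 37895 and 44505 counts against 41902 and 40695. The DU145 EphA2 OE libraries split at this gene, with 1707 and 1 counts. SNORD22 (ENSG00000277194, within SNHG1) held 309 and 265 counts in the knockout and 1 and 1 in the control, and SNORA18 (within TAF1D) 176 and 224 against 1 and 1. SNORD88C held 12 and 25 counts in the knockout and 1 and 1 in the control. On the lower side MIR4707 (within HAUS4) held 1 and 1 counts in the knockout and 83 and 105 in the control, and SNORD24 (within RPL7A) 1 and 1 against 27 and 20. These libraries were made from RNA selected for poly(A), which these small RNAs lack in mature form, and 0 of these 6 passed in edgeR (adjusted p = 0.138 to 0.617; DESeq2 called 4 of them). Of 185 small RNA genes tested, 17 had at least 20 counts in some of the 8 libraries and at most 3 in all others, 11 of those divided the replicates of a PC3-labelled group, and 4 put the groups fully apart.

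Of the protein-coding genes at the ends of the list, DDIAS, a protein that protects cells from apoptosis after DNA damage, was at 5.96 and 5.75 FPKM in the knockout and 1.89 and 1.95 FPKM in the control (log2 fold change 1.63, adjusted p = 0.0646). The DU145-labelled libraries lay at 1.35 to 2.40 FPKM, so the knockout stood apart. PALM2AKAP2, which anchors protein kinase A, was at 5.99 and 12.1 FPKM in the knockout and 1.97 and 2.44 FPKM in the control (log2 fold change 2.06, adjusted p = 0.171). For this gene the DU145-labelled libraries lay above both groups, at 15.4 to 16.6 FPKM, and its log2 fold change was -0.87 with the controls exchanged. CYP24A1, the enzyme that breaks down active vitamin D, was at 0.330 and 0.476 FPKM in the knockout and 1.59 and 2.25 FPKM in the control (log2 fold change -2.21, adjusted p = 0.324). XAGE1B, a cancer-testis antigen gene with near-identical copies, was at 0.634 and 0.639 FPKM in the knockout and 2.46 and 2.60 FPKM in the control (log2 fold change -1.95, adjusted p = 0.10). F8A2, another gene with near-identical copies, had a log2 fold change of -2.08, and the pseudogene MEMO1P1 of -1.87. DESeq2 called DDIAS, PALM2AKAP2, CYP24A1, XAGE1B, F8A2 and MEMO1P1. The 3 genes known by identifier alone were ENSG00000288620 (5.37), ENSG00000288614 (-4.98) and ENSG00000279095 (-4.69), all with 3 counts or fewer in some libraries or overlapping other genes.

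The most abundant genes gave the most even measurements. Of the 658 genes with a mean of at least 50 FPKM, the 10 with the lowest p had log2 fold changes from -0.47 to 0.77, and 0 passed (DESeq2 called 9 of the 10). MMP14, a membrane-anchored metalloproteinase that cleaves collagen and is known to cleave EphA2, was at 156 and 150 FPKM in the knockout and 111 and 109 FPKM in the control (log2 fold change 0.50, SE 0.07, adjusted p = 0.171). TNFRSF12A, the TWEAK receptor, was at 69.7 and 73.5 FPKM in the knockout and 43.6 and 41.8 FPKM in the control (log2 fold change 0.77, adjusted p = 0.245). In both of these the groups were separated by several times the gap between their libraries. QSOX1, a secreted disulfide-forming enzyme, lay 0.46 higher, the chromatin protein HMGB3 0.48, the growth factor binding protein IGFBP4 0.38 and the transglutaminase subunit F13A1 0.52. On the lower side were SLC38A2, a neutral amino acid transporter that ATF4 induces (-0.45), the vesicle protein TPD52L2 (-0.47) and the chaperone HSP90B1 (-0.35). QSOX1 in the DU145 control libraries lay at the knockout level, at 70.9 and 69.0 FPKM. For QSOX1, HMGB3 and IGFBP4 the DU145 EphA2 OE libraries lay at or near the PC3 control level, and the test of the difference between the responses gave adjusted p of 0.0523, 0.0523 and 0.0519, against 0.0334 for F13A1.

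The members of gene lists were then counted, each read against the background shares above. Adjusted p are from edgeR where no test is named, and DESeq2 calls are not given for every list. The median log2 fold change over all genes tested was -0.0021. With the controls exchanged, the medians of 19 of 32 lists changed sign. The exchanged median is given below only for the ATF4 and unfolded protein response list. The direction of any other list may therefore depend on how the control columns were assigned.

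Of the Eph system, 3 of 9 tested receptors lay higher and 6 lower, 2 of them lower at an unadjusted p below 0.05: EPHA2 and EPHA10, a receptor without kinase activity, which was at 0.705 and 0.756 FPKM in the knockout and 1.33 and 1.87 FPKM in the control (log2 fold change -1.11, adjusted p = 0.732). EPHB2, a receptor for ephrin-B ligands, was at 1.02 and 0.547 FPKM in the knockout and 0.535 and 0.588 FPKM in the control, with overlap. Of 8 ephrin ligands 4 lay higher, with 0 at an unadjusted p below 0.05; EFNB2, a transmembrane ligand, had the lowest p (log2 fold change 0.36, unadjusted p = 0.0959).

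Of 42 actin and focal adhesion genes, 24 lay higher with a median of 0.018, and 6 were at an unadjusted p below 0.05, all higher. TNS4, a focal adhesion tensin, was at 9.06 and 9.76 FPKM in the knockout and 5.44 and 5.53 FPKM in the control (log2 fold change 0.80, SE 0.19, adjusted p = 0.501). The other 3 of lowest p were TPM2 (beta-tropomyosin, 0.60), ARPC1B (a subunit of the Arp2/3 complex, 0.27) and ACTB (beta-actin, 0.43). ACTB was at 541 and 586 FPKM in the knockout and 456 and 392.2 FPKM in the control, with the DU145-labelled libraries from 436 to 635 FPKM.

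Adhesion genes other than CDH1 were mixed. Among 12 cadherins and catenins 6 lay higher, and CTNNA1 had the second lowest p (0.24, adjusted p = 0.732). Of 23 genes of desmosomes and tight junctions 11 lay higher and 12 lower. CGN (cingulin, which ties tight junctions to the cytoskeleton) was at 20.1 and 19.3 FPKM in the knockout and 14.6 and 14.0 FPKM in the control (log2 fold change 0.48, adjusted p = 0.507), and CLDN12, a claudin, at 15.3 and 15.2 FPKM against 7.07 and 5.46 FPKM (1.30, adjusted p = 0.507). PKP1, a desmosomal plakophilin, was at 0.281 and 0.348 FPKM in the knockout and 0.919 and 0.820 FPKM in the control (-1.44, adjusted p = 0.505). All 3 pairs of groups were without overlap, and 0 of the 23 passed in edgeR (DESeq2 called 2). For CLDN12 the DU145 control libraries were themselves far apart, at 13.9 and 6.38 FPKM. Of 19 mesenchymal genes and regulators 9 lay higher and 9 lower with a median of 0, and the matrix cross-linking enzyme LOXL2 was the 1 at an unadjusted p below 0.05 (-0.29). Integrins gave 15 higher and 7 lower of 22, with the laminin receptor chain ITGA3 at -0.23 and ITGB3 at 0.48. Of 23 matrix proteases and inhibitors 12 lay higher, including PLAUR, the receptor for urokinase (0.35), and MMP15, a relative of MMP14, lay at -0.80.

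**Figure D4:**
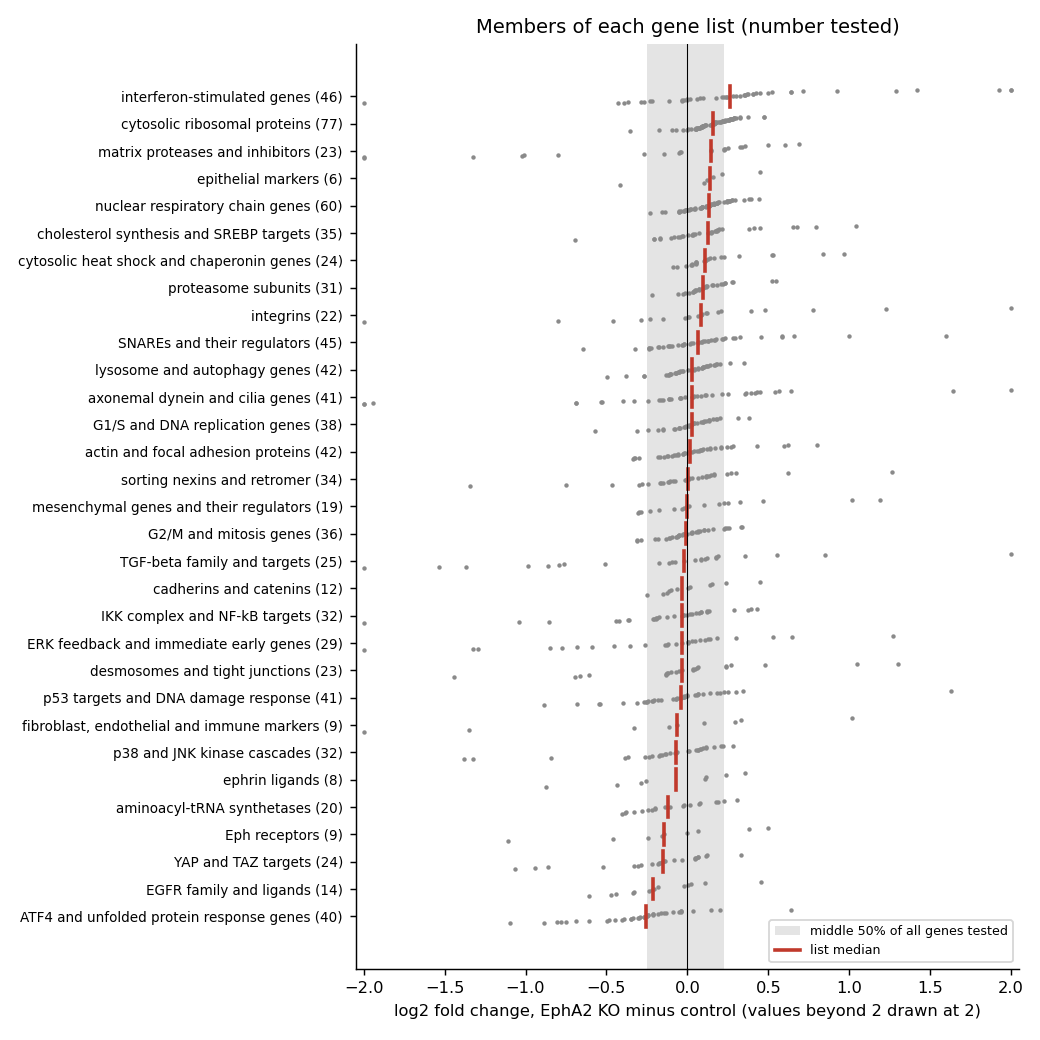
Each grey point is a tested member of a gene list, placed by its log2 fold change (EphA2 KO minus control, with values beyond 2 drawn at 2), and each red mark is the list's median; the grey band holds the middle 50% of all genes tested. The ATF4 and unfolded protein response list has the lowest median, -0.26, and the interferon-stimulated list the highest, 0.26.

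Among the lists of growth factor signalling, that of the EGFR family lay lower more often than higher, while the ERK feedback and TGF-beta lists below were near even. Of 14 genes of the EGFR family and its ligands, 4 lay higher and 10 lower with a median of -0.21, and 4 were lower at an unadjusted p below 0.05 against 1 higher. The ligand TGFA was at 7.28 and 7.24 FPKM in the knockout and 9.83 and 10.2 FPKM in the control (log2 fold change -0.44, SE 0.12, adjusted p = 0.566). The ligand EREG was at 30.1 and 29.9 FPKM in the knockout and 38.6 and 37.7 FPKM in the control (-0.33, adjusted p = 0.607), and ERRFI1, an inducible inhibitor of EGFR, at 67.3 and 66.1 FPKM against 85.1 and 85.6 FPKM (-0.34, adjusted p = 0.582). The libraries of each group lay close together in all 3, and 0 passed. EREG and ERRFI1 in the DU145 control libraries were lower still, at 21.8 and 23.1 FPKM and at 61.9 and 60.0 FPKM.

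ERK feedback and immediate early genes had 14 higher and 15 lower of 29, with 3 at an unadjusted p below 0.05, all lower. DUSP1, a phosphatase that switches off p38 and ERK, was at 12.7 and 11.6 FPKM in the knockout and 19.4 and 19.96 FPKM in the control (-0.68, SE 0.16, adjusted p = 0.503). The ERK phosphatase DUSP5 was at 24.8 and 24.2 FPKM in the knockout and 38.4 and 36.3 FPKM in the control (-0.59, adjusted p = 0.571), and the ERK-induced transcription factor ETV5 lay at -0.35. In the p38 and JNK cascades 14 of 32 lay higher and 18 lower. Beside MAPK14, MAP3K20 (the ZAK kinase upstream of p38 and JNK) was at 5.49 and 4.69 FPKM in the knockout and 13.2 and 13.7 FPKM in the control (-1.38, SE 0.14, adjusted p = 0.0514), just short of the threshold, with the DU145-labelled libraries at 10.1 to 13.5 FPKM. ZFP36, an RNA-decay factor that p38 regulates, lay at -0.37.

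Of 25 genes of the TGF-beta family and its targets, 7 were lower at an unadjusted p below 0.05 and 0 higher, though 12 of 25 lay higher in all. SMAD4, the shared mediator of TGF-beta and BMP signals, was at 0.301 and 0.341 FPKM in the knockout and 1.45 and 1.21 FPKM in the control (-2.02, SE 0.28, adjusted p = 0.138). SMAD2, a receptor-activated SMAD, was at 1.09 and 0.786 FPKM against 1.55 and 1.67 FPKM (-0.76, adjusted p = 0.421). ID1, a target that BMP signals induce, was at 19.0 and 17.2 FPKM in the knockout and 32.4 and 31.5 FPKM in the control (-0.79, SE 0.14, adjusted p = 0.334). The inhibitory SMAD6 lay at -1.53 at a level below 0.3 FPKM in all 4 libraries, and the ligand TGFB2 at -0.86. SMAD4 and SMAD2 both lie on chromosome 18. DESeq2 called 3 members of the list.

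The list that lay lowest was that of ATF4 and unfolded protein response genes, the stress programme that slows translation and raises chaperones and amino acid supply. Of 40 members tested 36 lay lower and 4 higher, with a median of -0.26; 31 had groups that did not overlap, lower, against 23.6% of all genes, and 10 were lower at an unadjusted p below 0.05 against 3.51% of all genes. None passed in edgeR or DESeq2. HSP90B1 (the ER chaperone GRP94) was at 131 and 139 FPKM in the knockout and 185 and 163 FPKM in the control. HERPUD1, which aids degradation of misfolded ER proteins, was at 6.88 and 5.07 FPKM in the knockout and 9.04 and 9.44 FPKM in the control (-0.61, SE 0.17). CHAC1, which degrades glutathione, was at 14.8 and 15.0 FPKM in the knockout and 26.1 and 26.8 FPKM in the control (-0.80, SE 0.25), and the mTORC1 inhibitor SESN2 at 7.40 and 7.14 FPKM against 13.1 and 14.1 FPKM (-0.88, SE 0.27). The list's median stayed between -0.28 and -0.26 with each PC3-labelled library left out, and was 0.04 with the controls exchanged. Relative to the control mean the list's median was -0.27 and -0.28 in the knockout libraries.

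The promoters of these 4 members, the ones with the lowest p in the list, are shown because ATF4 and the ER stress factors act at known elements: 250 bases before the RefSeq start, GRCh38.p14, each on the strand of its gene, with matches on either strand in capitals. The motifs searched were the ATF4 element (TGATG, any base, AA) and the ER stress response element, CCAAT followed by 9 bases and CCACG.
HSP90B1, chr12:103930160-103930409, plus strand: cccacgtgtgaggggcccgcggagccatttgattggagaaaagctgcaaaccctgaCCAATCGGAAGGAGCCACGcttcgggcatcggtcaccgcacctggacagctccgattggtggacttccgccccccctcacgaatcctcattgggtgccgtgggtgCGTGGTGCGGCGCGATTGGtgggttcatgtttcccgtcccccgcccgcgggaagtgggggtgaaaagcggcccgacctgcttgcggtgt
HERPUD1, chr16:56931892-56932141, plus strand: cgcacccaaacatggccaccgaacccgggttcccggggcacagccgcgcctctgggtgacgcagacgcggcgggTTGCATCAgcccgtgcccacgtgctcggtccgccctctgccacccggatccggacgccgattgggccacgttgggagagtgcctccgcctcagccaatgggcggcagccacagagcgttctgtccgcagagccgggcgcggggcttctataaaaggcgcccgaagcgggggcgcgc
CHAC1, chr15:40953221-40953470, plus strand: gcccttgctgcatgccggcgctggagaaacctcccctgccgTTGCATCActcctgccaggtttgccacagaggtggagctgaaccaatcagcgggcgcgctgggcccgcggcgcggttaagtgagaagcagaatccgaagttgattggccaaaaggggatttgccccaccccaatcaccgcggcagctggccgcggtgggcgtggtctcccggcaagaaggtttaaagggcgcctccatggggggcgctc
SESN2, chr1:28259268-28259517, plus strand: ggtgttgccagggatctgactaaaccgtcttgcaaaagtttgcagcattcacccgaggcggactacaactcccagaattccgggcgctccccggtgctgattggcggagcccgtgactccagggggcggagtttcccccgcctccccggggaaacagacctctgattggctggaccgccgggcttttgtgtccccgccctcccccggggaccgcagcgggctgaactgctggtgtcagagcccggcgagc
The HSP90B1 window held the ER stress element at 2 places, HERPUD1 and CHAC1 held the ATF4 element on the minus strand, and SESN2 held neither in this window. Of 36 list members with a promoter in the table, 4 held the ATF4 element (11.1%), against 3.14% of 35116 promoters of the same length, and 4 held the ER stress element (11.1%), against 0.074%. The list was chosen as known genes of this programme, so a raised share of its elements follows from that choice. These shares therefore do not bear on the knockout. A match is a run of letters, not a measured binding site.

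Genes that act beside this programme were mixed. Of 20 aminoacyl-tRNA synthetases, which charge tRNAs and of which several are ATF4 targets, 13 lay lower and 7 higher with a median of -0.12, and at an unadjusted p below 0.05 3 were lower and 2 higher, RARS1 (the arginine enzyme, 0.31) and HARS1 (the histidine enzyme, 0.23). NARS1, the asparagine enzyme, was at 30.9 and 32.1 FPKM in the knockout and 42.6 and 40.8 FPKM in the control (-0.38, SE 0.08, adjusted p = 0.415), and it lies on chromosome 18. DESeq2 called 1 member of the list. Of 41 p53 target and DNA damage genes 28 lay lower and 13 higher with a median of -0.037, 5 lower and 1 higher at an unadjusted p below 0.05. DDIAS, described above, was the higher one and had the lowest p. PMAIP1 (NOXA, a pro-apoptotic BH3 protein that p53 and ATF4 induce) was at 11.6 and 12.4 FPKM in the knockout and 18.9 and 16.6 FPKM in the control (-0.54, adjusted p = 0.415); it too lies on chromosome 18.

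Genes of protein synthesis and respiration lay slightly higher with little spread. Many of them are abundant, and the median over all genes tested was itself 0.019 from 10 to 50 FPKM and 0.071 above 50 FPKM. Cytosolic ribosomal proteins lay higher in 71 of 77, with a median of 0.16, and 11 were higher at an unadjusted p below 0.05 (3.11% of all genes were). Nuclear respiratory chain genes lay higher in 48 of 60 (median 0.13, 6 at an unadjusted p below 0.05, all higher), proteasome subunits in 27 of 31 (median 0.094) and cytosolic heat shock and chaperonin genes in 21 of 24 (median 0.11). None of the members of these 4 lists passed in edgeR or DESeq2. Library by library the ribosomal median against the control mean was 0.15 and 0.16 in the knockout and 0.021 and -0.021 in the control. Many ribosomal protein genes have processed pseudogenes, which makes single values uncertain.

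Interferon-stimulated genes had the highest median, 0.26, with 32 of 46 higher and 12 lower, and 7 at an unadjusted p below 0.05, all higher. The transcription factor IRF1 was at 5.66 and 6.48 FPKM in the knockout and 4.57 and 4.001 FPKM in the control (0.52, adjusted p = 0.476). The immunoproteasome subunit PSMB9 was at 7.83 and 8.05 FPKM in the knockout and 5.396 and 4.95 FPKM in the control (0.64, adjusted p = 0.662), and the antiviral factor SAMD9L at 0.494 and 0.586 FPKM against 0.186 and 0.222 FPKM (1.42, adjusted p = 0.507). Cholesterol synthesis and SREBP target genes lay higher in 24 of 35 (median 0.13), with 4 higher and 1 lower at an unadjusted p below 0.05. HMGCS1, which makes HMG-CoA for the sterol pathway, was at 51.0 and 43.8 FPKM in the knockout and 21.8 and 24.8 FPKM in the control (1.04, SE 0.16, adjusted p = 0.186 in edgeR). DESeq2 called HMGCS1 (adjusted p = 2.74e-06), the 1 member it called in this list, and it called 1 interferon-stimulated gene. With the controls exchanged, the log2 fold change of HMGCS1 was -0.036 in edgeR. INSIG1, the sterol sensor partner of SCAP, was at 23.3 and 24.1 FPKM in the knockout and 17.7 and 12.3 FPKM in the control (0.68, adjusted p = 0.625).

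Around the called genes, the rest of their families were mixed. Of 45 SNAREs and regulators 27 lay higher, with a median of 0.068. SEC22C, an ER to Golgi SNARE-like protein, was at 9.04 and 8.39 FPKM in the knockout and 4.12 and 4.71 FPKM in the control (log2 fold change 1.0003, SE 0.11, adjusted p = 0.052), and as with STX6 the DU145-labelled libraries lay beside the knockout, at 8.37 to 9.39 FPKM. STX3, a SNARE of the apical membrane, lay at 0.66 (adjusted p = 0.324). Of 34 sorting nexins and retromer genes 17 lay higher and 17 lower; SNX21 lay at -0.75 and SNX6 at -0.24. Among 41 axonemal dynein and cilia genes 21 lay higher and 20 lower, with DNAAF5, a dynein assembly factor, at 0.42 (adjusted p = 0.448). Of 32 IKK and NF-kB genes 13 lay higher and 18 lower, and the kinase IKBKE was the 1 at an unadjusted p below 0.05 (0.43). Lysosome and autophagy genes were even, 23 higher and 19 lower of 42, with the protease CTSC at 0.35 and CTSD at -0.49. YAP and TAZ targets lay lower in 16 of 24 (median -0.15). Proliferation genes had medians near 0, 0.026 over 38 G1/S genes and -0.011 over 36 G2/M genes, and 0 G2/M genes at an unadjusted p below 0.05.

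Genes of chromosome 18 lay lower in the knockout. Of 174 genes there with a mean of at least 1 FPKM, 124 lay lower and 50 higher, with a median log2 fold change of -0.15; 33 were lower and 1 higher at an unadjusted p below 0.05, and 0 passed the adjusted threshold. Medians of the other autosomes and X ran from -0.046 (chromosome 8) to 0.087 (chromosome 21). Of the 66 genes that start at or beyond position 40000000, 60 lay lower with a median of -0.33, while the 108 genes before it had a median of -0.075. Library by library, relative to the mean of each gene over the 8 libraries, the median of the 66 genes was -0.17 and -0.19 in PC3 EphA2 KO, 0.17 and 0.16 in PC3 control, 0.28 and -0.013 in DU145 EphA2 OE and -0.10 and -0.07 in DU145 control. The DU145 EphA2 OE libraries were thus on different levels. SMAD4, SMAD2, NARS1 and PMAIP1 lie in this stretch. The chromosome and the position were picked after the values were seen, and the source of the shift was not tested.

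**Figure D5:**
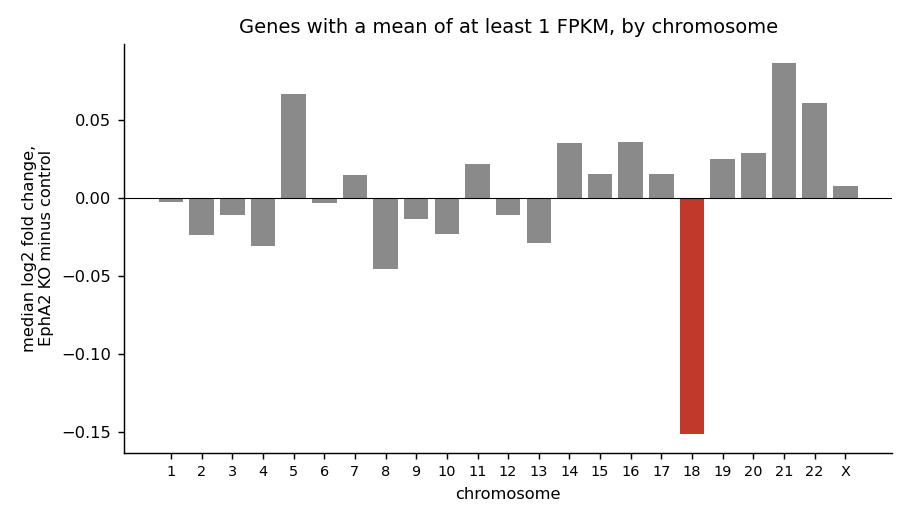
Bars give the median log2 fold change (EphA2 KO minus control) of genes with a mean of at least 1 FPKM on each chromosome. Chromosome 18 (red) is at -0.15, below the other autosomes and X.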

How the data were processed

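Polyadenylated RNA of 8 libraries was sequenced as paired ends after a dUTP second-strand protocol, per the labels' protocols. The authors deposited whole-number counts and FPKM per gene, in a table of 33221 genes and 16 value columns, with 0 columns unmapped. The submitters' processing notes list GRCh38 and the tools HISAT2 2.2.1, cutadapt 1.9, StringTie 2.1.6, edgeR and DESeq2. Which tool did what, and whether counting used strand, is not stated there. Of the genes, 20470 overlap another gene of the table, so reads there can be divided between them.

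The deposited counts of all 8 libraries entered 1 model of 4 groups in edgeR 4.0.16 under R 4.3.3 (4 residual degrees of freedom), with TMM factors and filterByExpr (minimum count 10, minimum total 15). The quasi-likelihood test was adjusted by the Benjamini-Hochberg method, with a threshold of 0.05, and the procedure was tested on simulated data. Simulated counts were drawn for each library from the spread fitted to these libraries. They therefore do not test the procedure on genes whose replicates split between 2 levels. Each SE was the size of the log2 fold change divided by the root of F. DESeq2 1.42.0, other scalings and filters, a replicate block, an exchange of the controls and the omission of each library were alternatives. Totals ran from 57571919 to 60951530 counts, and the median biological coefficient of variation was 0.257. No label says that replicates came from separate cultures, so the p-values here describe the spread among these libraries, which may be technical. By permutation, 2 libraries against 2 cannot reach 0.05. The 2 libraries of each PC3-labelled group differed by more than counting noise (chi-square 38.9 and 45.7 times its degrees of freedom). Sides of the midpoint used log2(FPKM + 0.01).

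Genes named were EPHA2, CDH1, every called gene, the 10 highest and 10 lowest log2 fold changes among genes with a mean of at least 1 FPKM, an unadjusted p below 0.01 and no overlap, the 10 genes of at least 50 FPKM with the lowest p, and up to 4 members per list with the lowest p. BASP1, WDR6, PIP4K2C, EPHA2-AS1, ENSG00000288398 and genes overlapping named ones were chosen after their values were seen. The gene lists, like the comparison, were chosen with earlier results of these data known. RefSeq promoters were matched by symbol. Some genes and lists that this rule names are not reported here.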

Additional observations from a re-analysis of the deposited data

Results flagged for a closer look

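In 4 of the genes named, the log2 fold change of the knockout differed from that of the overexpression by a test of the difference itself (edgeR, adjusted p below 0.05, n = 2 libraries in each of 4 groups, as a model fitted across all genes). For DNAL1 the difference was -4.91 (log2 fold change -2.66 in the knockout and 2.25 in the overexpression; adjusted p = 0.00434). For STX6 the difference was 1.61 (1.60 and -0.01; adjusted p = 0.027). For AC105052 (ENSG00000267645) it was -3.12 (-2.75 and 0.37; adjusted p = 0.0352), and for F13A1 1.46 (0.52 and -0.95; adjusted p = 0.0334). The control groups of both lines enter these values, and in STX6 it is the PC3 control that stands apart from the other 6 libraries.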

How the results depend on the processing

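The 6 calls between knockout and control became 190 with DESeq2 and 13 with the controls exchanged, and the 7 calls on the difference of the responses became 410 and 16. With genes of a mean CPM of at least 1 there were 6 and 19. With the replicate number as a block there were 0 calls in both (1168 genes at an unadjusted p below 0.05 for the knockout); same-numbered libraries did not deviate together, so the numbers do not pair them. Leaving out 1 library at a time gave 6 to 27 calls for the knockout and 11 to 323 for the difference; omission of DU145-labelled libraries for the knockout was added after the data were seen. The 4 PC3-labelled libraries alone gave 5 calls, of which STX6 was the 1 shared with the 6. DESeq2 called EPHA2 (-0.46) and CDH1 (0.45) at unaltered size. Of 979 log2 fold changes of 82 genes under these alternatives, 947 kept their sign and 32 reversed, 28 of them with the controls exchanged. Most of the alternatives refit the same comparison, so the pooled count does not measure stability under the exchange. With the controls exchanged, the reversed values were MAPK14 0.23, PALM2AKAP2 -0.87, MIR1244-1 -0.11, F8A2 0.81, QSOX1 -0.029, SLC38A2 0.069, F13A1 -0.44, IGFBP4 -0.12, EPHB2 -0.33, EFNB2 -0.017, ACTB -0.17, ARPC1B -0.16, CTNNA1 -0.019, ITGB3 -0.078, PLAUR -0.074, MMP15 0.26, ETV5 0.0068, ZFP36 0.14, SNX21 0.39, DNAAF5 -0.0034, PMAIP1 0.074, SESN2 0.16, CHAC1 0.44, HMGCS1 -0.036, NARS1 0.0097, ERRFI1 0.096, EREG 0.38, PIP4K2C -0.0096. Without PC3 EphA2 KO replicate 1, EPHB2 was at -0.015, WDR6 at -0.29 and PIP4K2C at -0.064, and without PC3 control replicate 2 BASP1 was at 0.022; over libraries left out, EPHB2 reached 0.88, WDR6 1.75, PIP4K2C 1.64 and BASP1 -2.07. Medians of 19 of 32 lists changed sign with the controls exchanged, 5 with the CPM minimum, and 5, 5, 6 and 9 without PC3 EphA2 KO replicate 1, KO replicate 2, PC3 control replicate 1 and control replicate 2. The causes were not tested.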
